A study of Homo sapiens with 4 samples.

Results

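The Notch genes described here are 3 receptors (NOTCH1, NOTCH2 and NOTCH3), 3 ligands (JAG1, JAG2 and DLL1), the glycosyltransferase LFNG, the DNA-binding effector RBPJ and 2 target genes (HES1 and HEY1). These 10 genes were taken by symbol from the 25559 gene rows of the count tables, by a rule that names the genes, and the list was drawn up with earlier results of these data known. The cells were HGC-27, an established line from human gastric cancer, which the paper describes as poorly differentiated and taken from a lymph node metastasis. RNA-seq counts came from 2 libraries of wt cells, labelled wildtype and called control cells in the paper, and from 2 libraries of RUNX3 KO cells, labelled RUNX3 knock-out. The KO cells had been transduced with a lentivirus carrying Cas9 and a guide against an exon of RUNX3, selected with puromycin and cloned from single cells, and the paper's text gives neither the number of clones nor what the control cells carried. Because the KO libraries may come from a single clone, a difference between clones and an effect of RUNX3 loss cannot be told apart in these data.

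Notch receptors and their ligands are transmembrane proteins, so signalling passes between touching cells. Ligand on the neighbouring cell pulls on the receptor, which is then cut by an ADAM protease and by gamma-secretase, and the freed intracellular domain enters the nucleus. There it joins RBPJ and a Mastermind-like coactivator to switch on HES and HEY genes, which encode bHLH transcriptional repressors. Fringe glycosyltransferases such as LFNG modify the receptor's extracellular domain and shift its response from Jagged towards Delta-like ligands. In the gut, Notch activity holds progenitor cells undifferentiated and limits secretory cell fates, and in cancer the pathway can act for or against tumour growth according to tissue.

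The promoters of 6 of the 10 genes were present in the RefSeq sequence table used here, and DLL1, LFNG, RBPJ and HEY1 were not matched. The 250 bases before the start of each of the 6 genes were searched on both strands for the RBPJ core word TGGGAA and for the RUNX core words TGTGGT and TGCGGT, which do not overlap in any of these windows. HES1 is shown because its promoter carried the RBPJ word, NOTCH2 because its promoter alone among the 6 carried a RUNX word, and JAG1 and JAG2 because they are the ligands with lower RNA whose promoter was matched. Capitals mark the words, and each line runs 5′ to 3′ along the strand of the gene. The windows lie in GRCh38.p14 at chr3:194135898-194136147 (plus strand), chr1:120069663-120069912 (minus), chr20:10674000-10674249 (minus) and chr14:105168777-105169026 (minus).
HES1: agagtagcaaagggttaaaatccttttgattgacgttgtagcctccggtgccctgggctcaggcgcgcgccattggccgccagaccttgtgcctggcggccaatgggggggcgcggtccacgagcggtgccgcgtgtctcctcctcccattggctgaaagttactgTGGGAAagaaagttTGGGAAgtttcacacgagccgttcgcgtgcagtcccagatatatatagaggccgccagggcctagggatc
NOTCH2: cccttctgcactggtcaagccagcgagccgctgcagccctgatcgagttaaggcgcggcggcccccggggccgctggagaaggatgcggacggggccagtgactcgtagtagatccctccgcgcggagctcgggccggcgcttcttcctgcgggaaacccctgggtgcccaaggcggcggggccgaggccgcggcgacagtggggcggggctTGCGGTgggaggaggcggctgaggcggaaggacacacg
JAG1: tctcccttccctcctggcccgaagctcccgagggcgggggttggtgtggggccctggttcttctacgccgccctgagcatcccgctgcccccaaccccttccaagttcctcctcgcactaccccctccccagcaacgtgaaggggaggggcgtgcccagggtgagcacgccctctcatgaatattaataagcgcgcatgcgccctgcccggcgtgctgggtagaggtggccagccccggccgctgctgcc
JAG2: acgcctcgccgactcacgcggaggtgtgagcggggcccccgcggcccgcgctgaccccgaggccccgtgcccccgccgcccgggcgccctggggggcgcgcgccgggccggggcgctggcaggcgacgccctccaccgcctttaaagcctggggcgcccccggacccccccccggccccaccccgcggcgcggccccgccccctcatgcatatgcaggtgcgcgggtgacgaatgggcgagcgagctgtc
HES1 held the RBPJ word in 2 copies on the strand of the gene, beginning 84 and 70 bases before its start. The word occurred in 20.8% of 35116 promoter windows of the same length. NOTCH2 held TGCGGT, which 5.84% of the windows held, and no window of the 6 genes held TGTGGT, which was found in 3855 of all windows. Over all windows, 16.3% held either RUNX word. Such matches describe the letters of these windows, not sites bound by a factor.

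Reads counted on genes numbered from 11731401 to 12110876 per library, so counting error is small for the receptors and JAG2, with at least 803 counts in every library, and large for DLL1, with 11 to 70. Within a group the libraries lay close to what counting noise gives (chi-square of 1.22 per degree of freedom for wt and 1.18 for RUNX3 KO), whereas a wt and a KO library differed by at least 17.1 per degree of freedom. Nothing in the labels says that replicates were separate cultures, so p-values measure the spread between these libraries, which may be technical. RUNX3 RNA itself fell to 225 and 185 counts in the KO libraries from 351 and 308 in the wt libraries. Its log2 fold change was -0.70 (adjusted p = 1.43e-09, SE 0.0961). Transcript of the targeted gene was thus still counted in both KO libraries. The paper states that the deletion was checked in mRNA and protein. Its immunoblot showed no RUNX3 protein, which RNA counts do not measure. All 6 gastric epithelial markers examined had at most 3 counts in every library, so the RNA did not show markers of gastric epithelium. Of the 5 general epithelial markers, EPCAM and KRT19 also had at most 3, whereas CDH1 and KRT8 had over 10 in every library. CDH1 had 15 and 21 counts in wt and 30 and 32 in KO libraries and KRT8 19 and 11 against 72 and 81, and both were called higher (1.70-fold and 5.02-fold). KRT18 had 0 in both wt libraries and 2 and 14 counts in KO libraries. The summed level of the epithelial markers was 2.80 and 2.97 CPM in wt and 8.81 and 10.6 CPM in RUNX3 KO libraries, while the sum of the 3 mesenchymal markers, nearly all VIM, was 4879 and 4909 CPM in wt and 2867 and 2938 CPM in KO libraries. VIM and FN1 were both called lower (1.68-fold and 8.08-fold), FN1 with 115 and 95 counts in wt and 15 and 11 in KO libraries, and CDH2 had at most 3 in any library. The 3 immune and the 3 endothelial markers summed to at most 0.508 and 0.339 CPM in any library. Any part of these shifts in the Notch results was not tested.

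All 10 Notch genes passed the filter on low counts, and each would have passed it from the libraries of either group alone. By edgeR's quasi-likelihood fit, with p adjusted over all 12967 tested genes, 5 of the 10 were lower in RUNX3 KO cells (DLL1, HEY1, JAG1, JAG2 and NOTCH1) and 2 were higher (NOTCH2 and NOTCH3). RBPJ, LFNG and HES1 did not pass. In such bulk RNA, fewer cells expressing a gene and less RNA per cell cannot be told apart. So many genes differed between these libraries that the count itself says little about Notch: 24.4% of all tested genes were called lower and 24.5% higher at the same threshold. The median absolute log2 fold change of the 10 genes was 0.19, as it was over all tested genes (0.19), and their median signed log2 fold change was -0.19 against -0.0021. Under the stricter rule that the paper states (p at most 0.05 with at least a 2-fold change), DLL1 and HEY1 were lower and no Notch gene was higher, where 4.01% of tested genes were lower and 2.11% higher. In 5 genes both KO libraries lay below both wt libraries and in 2 both lay above, which also held for 36.4% and 36.3% of all tested genes.

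**Figure D1:**
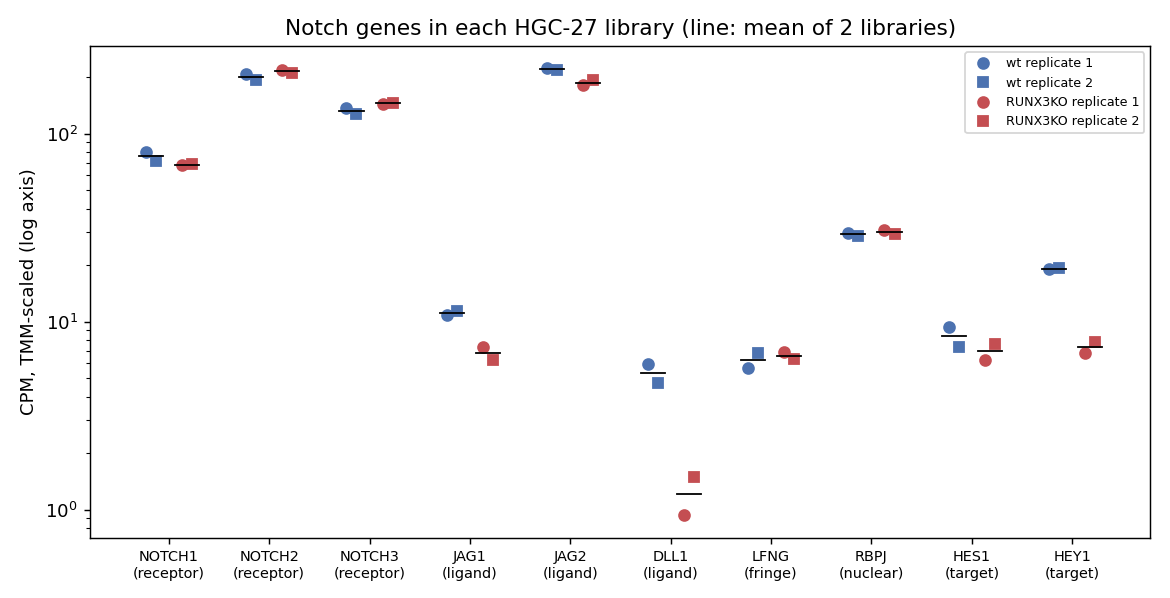
CPM (counts relative to TMM-scaled library size, log axis) of the 10 Notch genes in each of the 4 HGC-27 libraries, wt in blue and RUNX3 KO in red, with the mean of each group as a line. The libraries of the groups lie clearly apart for DLL1 (at least 4.75 CPM in wt), HEY1 and JAG1, and overlap for LFNG, RBPJ and HES1.

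Per length of transcript, JAG2 was the most abundant of the 10 genes and the Delta-like and other Jagged ligand were the least. Levels were compared between genes as CPM per kb of exon union (all annotated exons merged). JAG2 stood at 34.9 and 33.9 in the wt libraries, followed by NOTCH3 at 14.6 and 13.6, NOTCH2 at 12.4 and 11.5, and NOTCH1 at 6.39 and 5.73. HES1, HEY1, RBPJ, LFNG, DLL1 and JAG1 followed in that order, with JAG1 at 1.17 and 1.23. Of the neighbours in this order, only the libraries of RBPJ and LFNG overlapped in wt cells. In RUNX3 KO cells the first 5 places were unchanged, HEY1 dropped below RBPJ and LFNG to between 1.24 and 1.43, and DLL1, between 0.244 and 0.392, was below JAG1 in the last place. Places in the order depend on the length used. With the canonical transcript in its place, a choice made after seeing the data, JAG2 remained first in both groups, but NOTCH2 came before NOTCH3, and HEY1, at a wt mean of 8.72, moved up to place 4 in wt cells. With that length HEY1 remained above LFNG in KO cells, and DLL1 was below JAG1 in both groups.

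**Figure D2:**
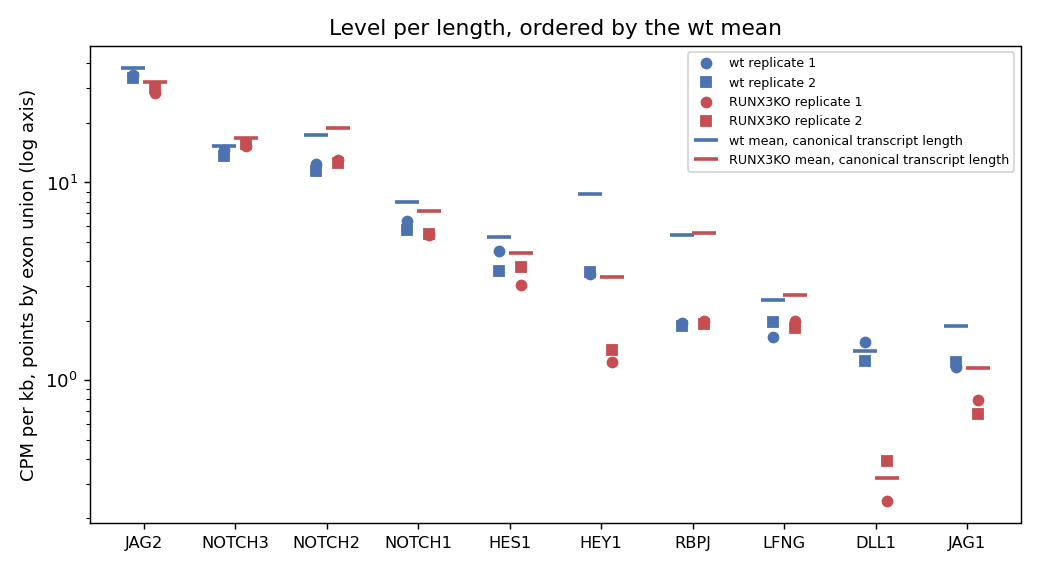
CPM per kb (log axis) of the 10 Notch genes, ordered by the wt mean, with points for each library by exon-union length and dashes for group means by canonical transcript length. JAG2 is highest in every library, and the dashes of RBPJ and HEY1 lie far above their points because their exon unions are long.

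The receptors changed little. NOTCH1, NOTCH2 and NOTCH3 encode the receptors that ligands engage and that release the signalling domain on cleavage.
NOTCH1 (minus strand of chromosome 9, bases 139388885 to 139440500; hg19) had 945 and 847 counts in the wt libraries and 803 and 826 in KO libraries, or 80.0 and 71.8 against 68.0 and 68.7 CPM. Both KO libraries lay below both wt libraries, but the gap to the nearer wt library was smaller than the distance between the wt libraries. Its log2 fold change was -0.15 (adjusted p = 0.0150, SE 0.0538), a fall of 1.11-fold.
NOTCH2 (minus strand of chromosome 1, bases 120454176 to 120643366) had 2445 and 2266 counts in wt and 2576 and 2531 in KO libraries, or 207 and 192 against 218 and 211 CPM. The groups did not overlap, again by less than the distance between the wt libraries, and the log2 fold change was 0.10 (adjusted p = 0.0106, SE 0.0351). Reads of NOTCH2 are shared in part with the NOTCH2NL copies, so counting may split them, and the NOTCH2NL row had 126 and 152 counts in wt and 153 and 156 in KO libraries (log2 fold change 0.14, SE 0.123, not called).
NOTCH3 (minus strand of chromosome 19, bases 15269849 to 15311806) had 1626 and 1507 counts in wt and 1705 and 1761 in KO libraries, or 138 and 128 against 145 and 147 CPM. Both KO libraries were above both wt libraries, again by less than the distance between the wt libraries. The log2 fold change was 0.13 (adjusted p = 0.00408, SE 0.0402). For all 3 receptors the call was lost with DESeq2, without a filter on low counts and with either KO library left out. It was also lost without wt replicate 1 for NOTCH1 (log2 fold change -0.070) and without wt replicate 2 for NOTCH2 (0.048) and NOTCH3 (0.077).

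As a share of the receptor level per kb of exon union, NOTCH4 included, NOTCH1 made up 19.1% and 18.6% in the wt libraries and 16.0% and 16.3% in the KO libraries. NOTCH3 made up 43.8% and 44.0% in wt and 45.3% and 46.3% in KO libraries. NOTCH2 made up 37.0% and 37.2% against 38.4% and 37.4%. Which receptor led depended on the length used. By canonical transcript length NOTCH2 came first, at 42.7% and 43.0% in wt and 44.4% and 43.4% in KO libraries. NOTCH3 then made up 37.4% and 37.6% against 38.7% and 39.7%. The mix of receptors therefore moved by a few percentage points, with the libraries of the groups apart for each of the 3. The summed receptor level per kb of exon union was 33.5 and 30.8 in wt and 33.9 and 33.6 in KO libraries. Both KO libraries lay above both wt libraries, by less than the wt libraries differed from each other. NOTCH4, the remaining receptor, had at most 11 counts in any library and was not tested.

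The 3 ligands were each called lower, where 24.4% of all tested genes were, and 3 genes are too few to say more of the role. JAG1 and JAG2 encode Jagged ligands and DLL1 a Delta-like ligand, all presented on the cell surface to receptors of neighbouring cells.
DLL1 (minus strand of chromosome 6, bases 170591294 to 170615653) had 70 and 56 counts in the wt libraries and 11 and 18 in the KO libraries. Its level was 5.34 ± 0.837 CPM (SD, n = 2) in wt and 1.22 ± 0.400 CPM (SD, n = 2) in KO cells, and the lowest wt library lay well above the highest KO library. This was the largest change of the 10 genes, a log2 fold change of -2.12 (adjusted p = 5.47e-11, SE 0.265, 95% interval -2.65 to -1.60), or 4.36-fold lower. Counts this low leave the size uncertain, and the log2 fold change ran from -2.50 to -1.82 when a library was left out. In the annotation, 370 bases of DLL1 exons (9.69%) overlap exons of FAM120B on the opposite strand, and whether the counting used strand is not given in the sources used here. FAM120B, with 307 and 305 counts in wt and 257 and 303 in KO libraries, had a log2 fold change of -0.14 (SE 0.0887, not called).
JAG1 (minus strand of chromosome 20, bases 10618332 to 10654647) had 128 and 135 counts in wt and 87 and 75 in KO libraries, or 10.8 and 11.4 against 7.37 and 6.24 CPM. The groups were apart by several times the distance within either, with a log2 fold change of -0.71 (adjusted p = 1.98e-05, SE 0.145), 1.64-fold lower. Without RUNX3 KO replicate 2 the adjusted p was 0.0528 and the call was lost (log2 fold change -0.60).
JAG2 (minus strand of chromosome 14, bases 105607319 to 105635161), the most abundant ligand, had 2632 and 2562 counts in wt and 2134 and 2308 in KO libraries. At 220 ± 4.13 CPM (SD, n = 2) in wt and 186 ± 7.90 CPM (SD, n = 2) in KO cells its fall was small but clear of the spread, a log2 fold change of -0.24 (adjusted p = 8.18e-09, SE 0.0349), 1.18-fold lower. The call held in every fit tried here, but the genes around JAG2 on its chromosome were lower as well, with a median of -0.16.

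JAG2 made up most of the ligand level in every library. Among JAG1, JAG2, DLL1, DLL3 and DLL4, per kb of exon union, JAG2 made up 91.6% and 92.0% of the ligand level in the wt libraries and 95.7% and 95.9% in the KO libraries. DLL1 made up 4.08% and 3.37% in wt and 0.826% and 1.25% in KO libraries. JAG1 made up 3.06% and 3.33% against 2.68% and 2.15%. The share of DLL4 was higher in both KO libraries, at 0.374% and 0.435% in wt and 0.724% and 0.559% in KO, from counts too low to be tested, and the rest was DLL3, also at low counts. The summed ligand level was 38.1 and 36.9 in wt and 29.6 and 31.3 in KO libraries, so both KO libraries lay below both wt libraries.

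LFNG, a fringe glycosyltransferase of the Golgi, and RBPJ, the DNA-binding partner of the receptor's intracellular domain, did not pass the test.
LFNG (plus strand of chromosome 7, bases 2552163 to 2568811) had 67 and 80 counts in wt and 81 and 76 in KO libraries, which overlap. Its log2 fold change was 0.082 (adjusted p = 0.724, SE 0.169, 95% interval -0.25 to 0.42).
RBPJ (plus strand of chromosome 4, bases 26165077 to 26436753) had 351 and 339 counts in wt and 361 and 354 in KO libraries, or 29.7 and 28.7 against 30.6 and 29.5 CPM. These overlap as well, with a log2 fold change of 0.038 (SE 0.0803) and a narrower 95% interval of -0.12 to 0.20 (adjusted p = 0.729).

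Of the 2 target genes, HEY1 fell and HES1 did not pass the test. HEY1 and HES1 encode related bHLH repressors that are induced by Notch in many cell types, HES1 also by other signals.
HEY1 (minus strand of chromosome 8, bases 80674606 to 80680092) had 224 and 228 counts in the wt libraries and 80 and 94 in the KO libraries. Its level was 19.2 ± 0.245 CPM (SD, n = 2) in wt and 7.30 ± 0.736 CPM (SD, n = 2) in KO cells, so the libraries within a group differed little and the groups stood far apart. The log2 fold change of -1.39 (adjusted p = 4.19e-17, 95% interval -1.64 to -1.14) is a 2.62-fold fall and had the smallest p of the 10 genes. It stayed between -1.50 and -1.29 with a library left out.
HES1 (plus strand of chromosome 3, bases 193853937 to 193856521) had 110 and 87 counts in wt and 74 and 92 in KO libraries, or 9.32 and 7.37 against 6.27 and 7.65 CPM. The higher KO library lay above the lower wt library. Its log2 fold change of -0.26 (adjusted p = 0.169, SE 0.157) had a 95% interval from -0.57 to 0.053, which does not overlap that of HEY1. With 1 library left out it ran from -0.42 (without wt replicate 2, adjusted p = 0.0521) to -0.081 (without wt replicate 1, adjusted p = 0.778), so its size rests on single libraries, and it was not called in any of these fits. The difference between the changes of these genes was not tested in a model of its own.

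**Figure D3:**
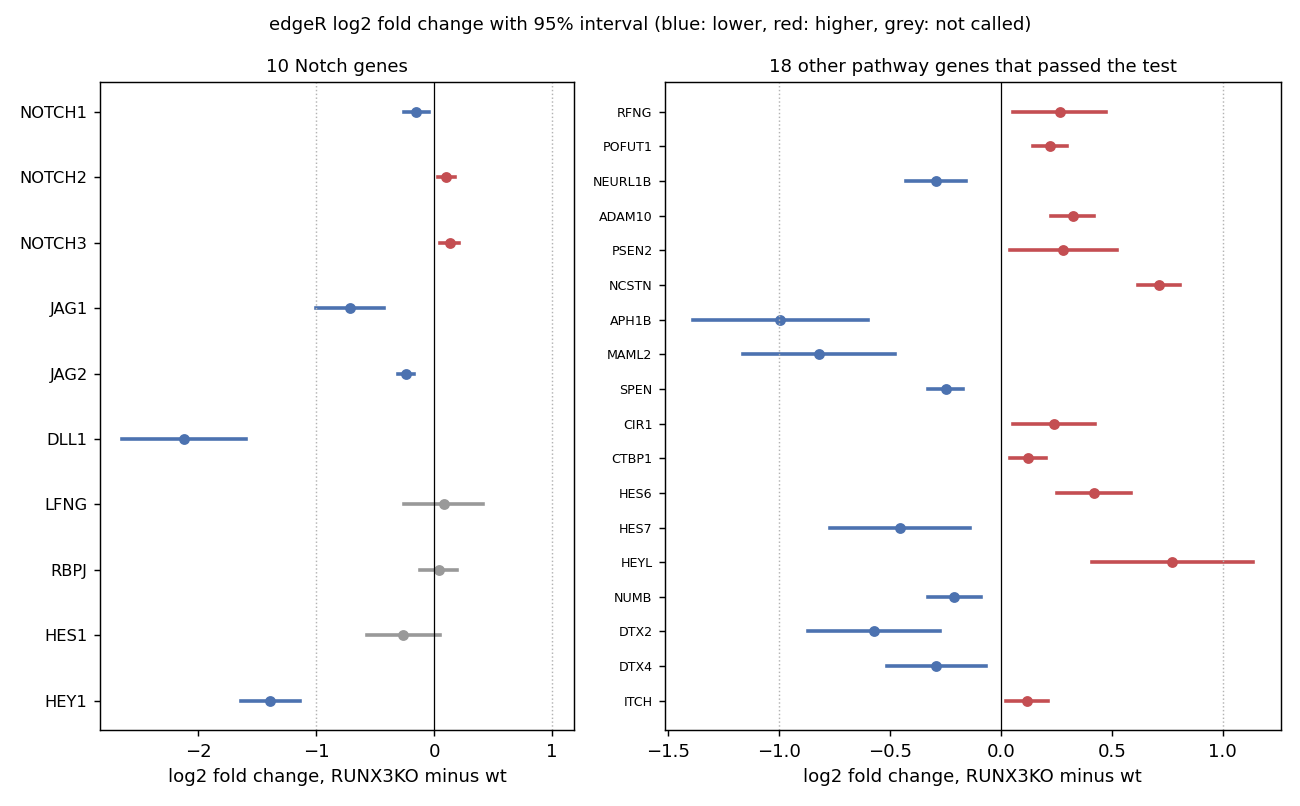
Log2 fold changes (RUNX3 KO minus wt) with 95% intervals by edgeR for the 10 Notch genes, left, and the other pathway genes that passed the test, right, with calls at an adjusted p under 0.05 in blue (lower) and red (higher) and dotted lines at a 2-fold change. DLL3, which passed the filter on low counts only through the wt libraries, is not drawn. DLL1 (-2.12) and HEY1 (-1.39) lie beyond 2-fold, and the receptors lie within 0.16 of 0.

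A list of 44 other pathway genes was examined by role. Of these, 36 passed the filter on low counts, of which DLL3 did so through the wt libraries only and is not counted here. Of the other 35, 8 were called lower and 10 higher in RUNX3 KO cells, which is 51.4% against 48.9% of all tested genes, and the median log2 fold change was -0.012. The 8 genes that were not tested for low counts were NOTCH4, DLL4, DLK1, MFNG, NEURL1, HES5, DTX1 and DTX3.

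Among the other ligands DLL3, a Delta-like protein that acts in the same cell as the receptor, had 11 and 10 counts in wt libraries and 1 in each KO library. It passed the filter through the wt libraries only. Since the group where it was higher decided whether it was tested, no test, ratio or interval is given. DLK2 had a log2 fold change of -0.36 and was not called.

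Of the 8 genes for cutting the receptor, 3 were called higher and 1 lower, near the background of 48.9% called among all tested genes. NCSTN, the gamma-secretase subunit nicastrin, rose from 833 and 815 to 1358 and 1371 counts, a log2 fold change of 0.71 (adjusted p = 4.49e-24, SE 0.0477). APH1B, a scaffold subunit of the same enzyme, went the other way, from 70 and 84 to 40 and 38 counts (log2 fold change -0.99, SE 0.198). Its paralog APH1A was far more abundant, at 118 CPM against 6.52 CPM for APH1B in wt cells without a correction for length, and had a log2 fold change of -0.10 that did not pass. ADAM10, the protease of the first cut, rose from 958 and 976 to 1149 and 1294 counts (log2 fold change 0.32, SE 0.0485). ADAM17, a related protease, had a log2 fold change of -0.025 and was not called.

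Of the 3 tested genes for enzymes that add sugars to the receptor, 2 were higher, where 24.5% of all tested genes were, a count too small to say more of the role. POFUT1, which adds O-fucose, rose by 0.22 (SE 0.0384) and RFNG, a fringe protein, by 0.27 (SE 0.105) on the log2 scale. Of 3 tested genes for ligand endocytosis 1 was lower, where 24.4% of all tested genes were, a count too small to say more. This gene was NEURL1B (log2 fold change -0.29, SE 0.0671). MIB1, the E3 ligase with 1285 and 1282 counts in wt and 1306 and 1263 in KO libraries, was not called.

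At the level of transcription, MAML2 was lower, with 108 and 88 counts in wt and 53 and 59 in KO libraries (log2 fold change -0.82, adjusted p = 3.38e-05, SE 0.172). MAML1 and MAML3, which encode the related coactivators, were not called, at 0.017 and -0.048. So 1 of the 3 coactivators was lower, where 24.4% of all tested genes were. Of 4 corepressors recruited through RBPJ, SPEN fell by 0.25 (SE 0.0400), whereas CIR1 rose by 0.24 (SE 0.0922) and CTBP1 by 0.12 (SE 0.0414). That is 1 lower and 2 higher of 4, where 24.4% and 24.5% of all tested genes were, too few to say more.

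Of the 7 other HES, HEY and feedback target genes tested, 1 was lower and 2 were higher, or 42.9% called against 48.9% of all tested genes, which is near the background. HEYL, the third HEY family gene, rose from 52 and 46 to 87 and 82 counts (log2 fold change 0.77, adjusted p = 0.000218, SE 0.182), opposite to HEY1. HEY2 had 128 and 137 counts in wt and 122 and 101 in KO libraries, a log2 fold change of -0.26 that was not called (adjusted p = 0.101). HES6, which opposes HES1 in neural progenitors, rose by 0.42 (SE 0.0836) and HES7, a gene of the segmentation clock, changed by -0.45 (SE 0.159). NRARP, a feedback inhibitor that Notch induces, had a log2 fold change of 0.18 and was not called (adjusted p = 0.113).

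Among negative regulators and turnover genes 3 of 6 were lower and 1 was higher, where 24.4% of all tested genes were lower and 24.5% higher, and 6 genes are too few to say more of the role. The Deltex gene DTX2 fell by 0.57 (SE 0.149) and DTX4 by 0.29 (SE 0.112), and NUMB, which targets the receptor for endocytosis, fell by 0.21 (SE 0.0596) on the log2 scale. FBXW7, the ubiquitin ligase subunit that turns over the intracellular domain, was not called, at 0.13.

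Each Notch gene was also set beside the tested genes of known position nearest to it on its chromosome, up to 20 on each side. For HEY1 the 40 neighbours had a median log2 fold change of 0.062, and none fell as much as HEY1. Around DLL1, near the end of chromosome 6, 24 neighbours had a median of 0.041 and 1 fell at least as much. The 40 neighbours of JAG1 had a median of 0.043, and 1 fell at least as much. These 3 genes were thus lower than all, or all but 1, of the genes around them. JAG2 was not, since 25 of its 30 neighbours were lower, with a median of -0.16, and 11 were lowered to the same extent or more. Subtracting that median leaves -0.083 for JAG2. NOTCH3 rose within a stretch that was lower, with 31 of 40 neighbours lower and a median of -0.14, and 4 of them rose at least as much. For NOTCH1, NOTCH2, LFNG, RBPJ and HES1 the medians lay between -0.036 and 0.056.

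**Figure D4:**
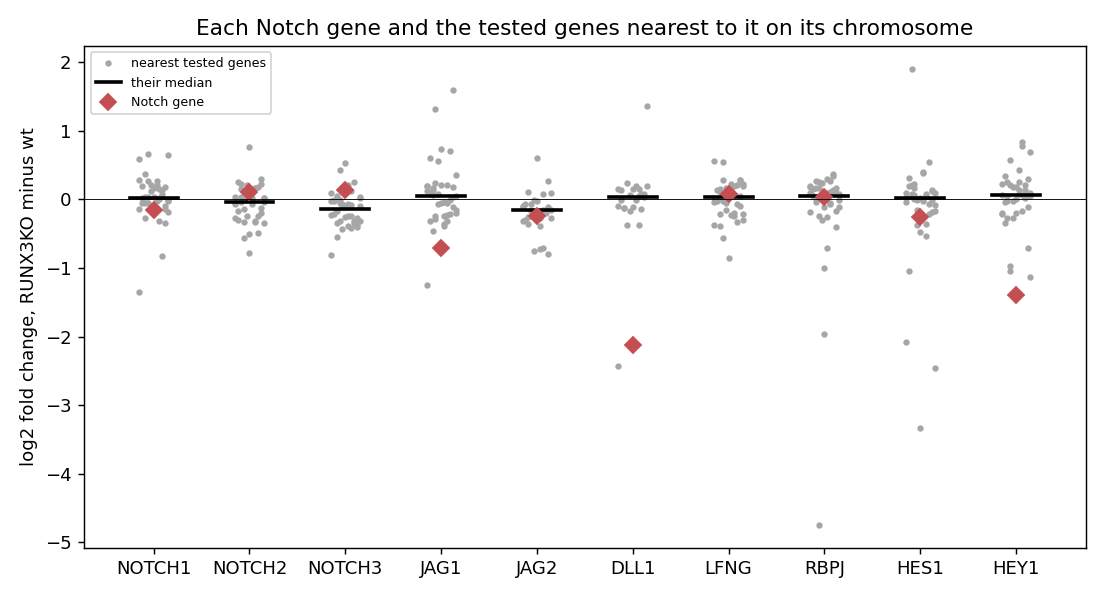
Log2 fold change (RUNX3 KO minus wt) of each Notch gene as a red diamond, with the nearest tested genes on its chromosome as grey points and their median as a line. HEY1 lies below all 40 of its neighbours, whereas JAG2 lies close to its neighbours' median of -0.16.

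**Figure D5:**
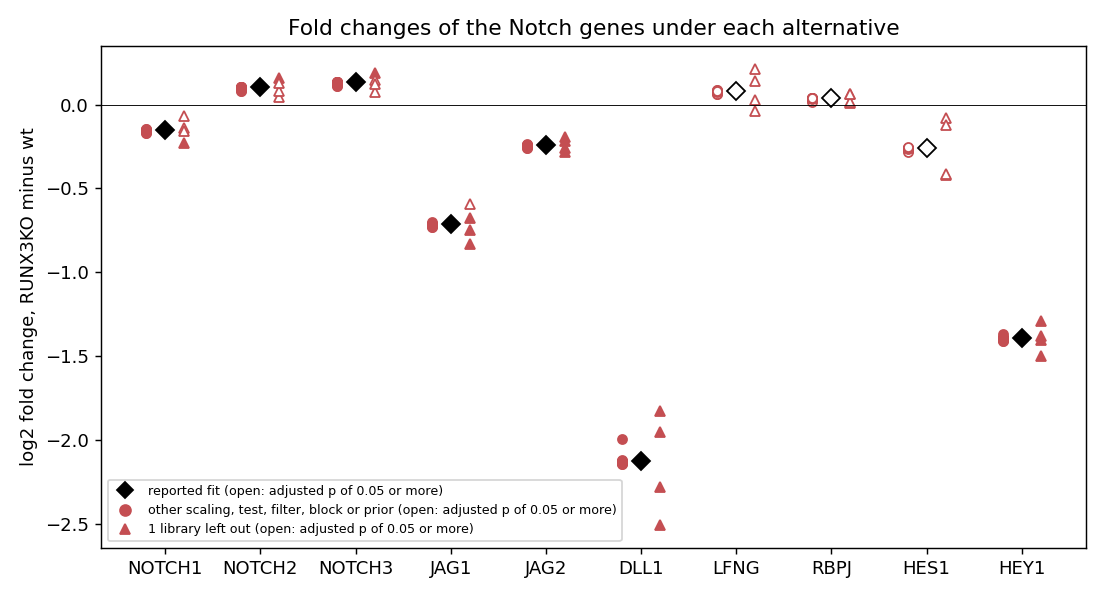
Log2 fold change (RUNX3 KO minus wt) of each Notch gene in the reported fit (diamonds), under other scalings, tests, filters, the replicate block or another prior count (circles) and with 1 library left out (triangles), with open symbols where the adjusted p was 0.05 or more. DLL1, HEY1 and JAG2 keep filled symbols throughout, JAG1 loses its call without RUNX3 KO replicate 2, and the receptors lose theirs in several fits.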

How the data were processed

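RNA-seq libraries of HGC-27 cells, 2 wt and 2 RUNX3 KO, were analysed from the raw counts per gene symbol that the authors deposited without normalization. The submitters' processing notes name bcl2fastq, HISAT2 2.1.0 and HTSeq with hg19, whereas the paper names STAR, featureCounts and GENCODE, also on hg19. The labels name a stranded poly(A) kit, and whether the counting used strand is not given in the sources used here. Rows for reads without a gene, 5 per table, took 25.9% to 28.1% of all counts and were left out.

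The Notch genes and the list of other pathway genes were chosen with earlier results of these data known. Counts were filtered with filterByExpr (minimum count 10, minimum total 15), scaled by TMM and fitted with edgeR 4.0.16 in R 4.3.3 (glmQLFit and glmQLFTest, prior count 0.125, no replicate block), with Benjamini-Hochberg adjustment over 12967 tested genes. Standard errors were taken from the log2 fold change and its F statistic, and 95% intervals use the degrees of freedom of the fit. Levels are CPM on TMM-scaled library sizes (mean ± SD, n = 2). With 2 libraries against 2, the smallest p of an exact permutation test is 0.333. Among other pathway genes, up to 3 with the largest called change in each role and any past 2-fold were named, and further genes named beside them were chosen after their values were seen. Symbols were matched to reference gene names, 19607 directly and 2160 through a synonym. Positions and lengths came from a GENCODE annotation lifted to GRCh37, and promoter sequences came from RefSeq on GRCh38.p14. A position was found for 12098 of the tested genes, and neighbours were taken from these only. Intervals cover counting error and the spread between these libraries only. Alternatives used DESeq2 1.42.0 and limma 3.58.1 (voom), other scalings and filters, a replicate block, another prior count and each library left out. The steps were tested on simulated counts. The value of 1 of the other pathway genes is not reported here.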

Additional observations from a re-analysis of the deposited data

How the results depend on the processing

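DLL1, HEY1 and JAG2 kept their direction and call in all 14 alternative fits, with log2 fold changes from -2.50 to -1.82, -1.50 to -1.29 and -0.28 to -0.19. JAG1 lost its call in 1 alternative, and NOTCH1, NOTCH2 and NOTCH3 in 5 each. The 2 higher genes became 0 with DESeq2 and without a filter (1 at an unadjusted p under 0.05 with either, and 2 by edgeR's exact test and by limma-voom), and 0 by the 2-fold criterion, under which 2 were lower, a call rule added after seeing the data. Over fits that left out 1 library, the higher genes numbered from 0 to 2 and the lower genes from 3 to 5. The 0 came without wt replicate 2 or either RUNX3 KO library (0 at an unadjusted p under 0.05 in each), and the 3 without RUNX3 KO replicate 2. Of the other pathway genes, DLL3 left out (8 lower and 10 higher in the reported fit), 5 were higher and 4 lower with DESeq2, 6 were higher without a filter, and over fits that left out 1 library from 2 to 9 were higher and from 1 to 9 lower, the fewest higher without RUNX3 KO replicate 1 and the fewest lower without RUNX3 KO replicate 2. The share of all tested genes called also fell, from 48.9% to 28.5% with DESeq2 and 27.8% without a filter. With 1 library left out that share fell too, but not always in step with the counts above. LFNG changed sign without wt replicate 1 (from -0.040 to 0.21 over the libraries left out) and RBPJ when the neighbourhood median was subtracted (-0.018). That subtraction, added after seeing the data and not a fit with a test, also moved NOTCH3 from 0.13 to 0.27, NOTCH2 from 0.10 to 0.14 and JAG2 from -0.24 to -0.083. Neither LFNG nor RBPJ was called, and the cause was not tested.

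A replicate block left 5 Notch genes lower and 2 higher, with 48.5% of tested genes called. Deviations of libraries with the same number correlated at 0.0161 over genes. Libraries within a group differed little beyond counting noise, so this value cannot show whether libraries of the same number were prepared together.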
